A study of Mus musculus with 8 samples.

Results

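The cornified envelope genes of tongue epithelium examined here are 10 genes taken as a list of envelope and late differentiation genes: Sprr3, Sprr1a, Sbsn, Lor, Ivl, Evpl, Ppl, Tgm1, Tgm3 and Crnn. All 10 were present among the 19857 genes of the count table, and they were matched by Ensembl identifier to symbols of the mouse annotation for build mm10. Bulk tongue RNA of 4 WT mice was compared with that of 4 A17/+ mice, all female and 12 months old. A17/+ mice carry 1 copy of the A17 allele of Pabpn1 and serve as a model of oculopharyngeal muscular dystrophy (OPMD), which weakens muscles of the eyelid and throat late in life. The labels give no further allele, transgene or agent for either group. RNA came from cryosections of the middle region of the tongue, so epithelium, muscle, connective tissue and any gland in the section were measured together. In such bulk samples, fewer epithelial cells and less RNA per cell cannot be told apart.

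The cornified envelope is a sheet of cross-linked protein that replaces the plasma membrane of keratinocytes at the end of their differentiation. Envoplakin, periplakin and involucrin are laid down first under the membrane as a scaffold, transglutaminases join the proteins by covalent bonds, and loricrin and the small proline-rich proteins are then added as the bulk of the sheet. The upper surface of the mouse tongue is a cornified epithelium with filiform papillae, which makes it rough and resistant to wear.

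The libraries held 205696 to 485326 UMIs (unique molecular identifiers, each standing for 1 captured RNA molecule). Levels are given as CPM, the counts of a gene scaled to a common library total of the tested genes with TMM factors, and 1 UMI was worth 2.23 to 5.42 CPM depending on the library. WT 1 and A17/+ 1 stood apart from their groups: across genes their log2 levels correlated more with each other (Pearson r = 0.927) than with any library of their own genotype (highest 0.904 for WT 1 and 0.897 for A17/+ 1). Salivary gland transcripts summed to 937 UMIs in WT 1 and to between 0 and 21 in the other libraries. Keratins of the suprabasal tongue epithelium were present in every library, at 0.912% to 1.14% of the counts in WT and 0.705% to 1.33% in A17/+, so the label of the tissue as tongue was matched by its epithelial markers. Of the markers of hair-bearing skin, Krt1 had 9 UMIs in all WT libraries together and 0 in A17/+, and Krt77 had 1 UMI in the 8 libraries, whereas Krt10 and Flg were present in every library. The 4 markers in the count table summed to 266 to 358 UMIs per WT library and 140 to 213 per A17/+ library.

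The members did not move as a block. Sprr3, which encodes a small proline-rich bulk protein of the envelope in moist and cornified oral epithelia, was higher in A17/+ tongue by 6.08-fold. Sbsn, Evpl and Ppl were lower, at 0.499, 0.553 and 0.574 of the WT level. Lor, Tgm1, Tgm3 and Crnn did not pass the test, and Sprr1a and Ivl had too few counts to enter it. The edgeR quasi-likelihood test, with p-values adjusted over all 5066 genes tested, called 1 of the 8 tested members higher and 3 lower. Over all tested genes 6.34% were called higher and 2.61% lower, or 8.94% in either direction. The median log2 fold change of the 8 tested members was −0.24, beside 0.01 for all tested genes. The CPM of the 4 A17/+ libraries lay wholly on 1 side of the 4 WT libraries for 3 members (Sprr3, Sbsn and Ppl), as they did for 14.6% of all tested genes (8.57% higher and 6.08% lower). Sprr3 entered the test through its A17/+ libraries: all 4 of them, but only 1 WT library, reached the level that the count filter asks of 4 libraries. Its p-values in this fit and in the other filtered fits are therefore a description.

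**Figure D1:**
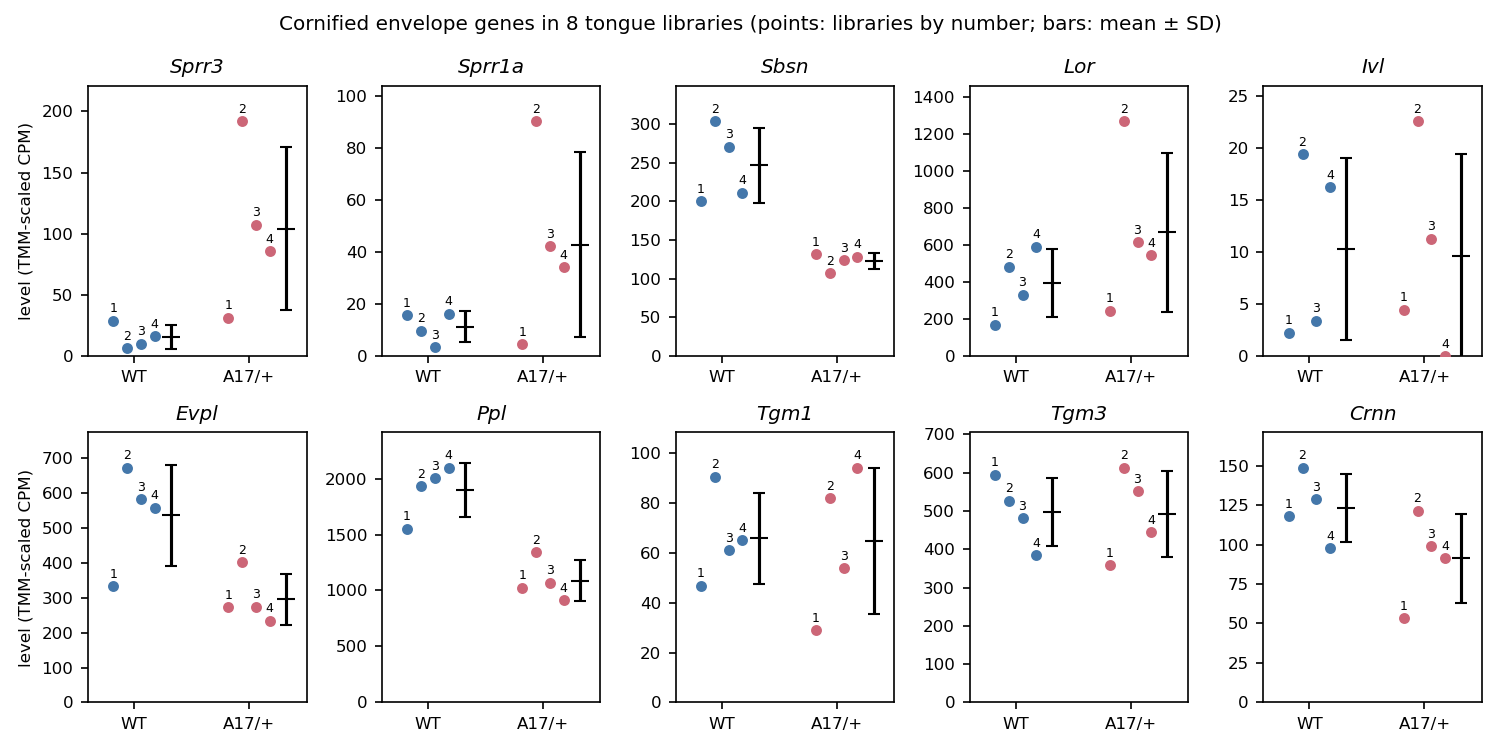
CPM of each of the 10 cornified envelope genes (vertical axis, own linear scale per panel) in the 4 WT and 4 A17/+ libraries; each point is 1 library with its replicate number, and bars are the group mean with its SD. Sprr3 is higher in A17/+ 2, 3 and 4 than in any other library, whereas Sbsn and Ppl are lower in all 4 A17/+ libraries than in all 4 WT libraries.

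The scaffold genes come first in the assembly of the envelope. Ppl encodes periplakin, a plakin that links the envelope to desmosomes and keratin filaments (ENSMUSG00000039457, mm10 chromosome 16, 5086291 to 5132421, minus strand). It stood at 1553, 1933, 2003 and 2097 CPM in WT 1 to 4, against 1025, 1342, 1071 and 912 CPM in A17/+ 1 to 4. All 4 A17/+ libraries were below all 4 WT libraries, and the highest A17/+ value, 1342 CPM, was below the lowest WT value, 1553 CPM. The means were 1897 ± 238 CPM in WT against 1087 ± 182 CPM in A17/+ (SD, n = 4). Ppl fell by 0.80 on the log2 scale (SE 0.16, 95% interval −1.14 to −0.46, edgeR adjusted p = 0.00728).

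Evpl encodes envoplakin, the plakin that pairs with periplakin (ENSMUSG00000034282, chromosome 11, 116220559 to 116238077, minus strand). Its level was 332, 672, 582 and 558 CPM in WT 1 to 4, against 272, 401, 274 and 234 CPM in A17/+ 1 to 4. The groups overlapped through WT 1, whose 332 CPM lay below the 401 CPM of A17/+ 2. The means were 536 ± 145 CPM in WT against 295 ± 73.0 CPM in A17/+ (SD, n = 4). Evpl fell by 0.85 on the log2 scale (SE 0.22, 95% interval −1.32 to −0.39, edgeR adjusted p = 0.0213). That call was lost when any of 4 libraries was left out: leaving out WT 2 gave an edgeR adjusted p of 0.0563, WT 3 of 0.0703, A17/+ 3 of 0.0794 and A17/+ 4 of 0.0699. It was also lost with limma-voom (adjusted p = 0.0527).

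The 2 plakins fell by like amounts. Within each library the count of Ppl divided by that of Evpl was 4.68, 2.88, 3.44 and 3.76 in WT 1 to 4, against 3.77, 3.35, 3.91 and 3.90 in A17/+ 1 to 4. This ratio averaged 3.69 ± 0.754 in WT against 3.73 ± 0.265 in A17/+ (SD, n = 4), and the A17/+ values lay inside the WT range. Ivl encodes involucrin, the third scaffold protein (ENSMUSG00000049128, chromosome 3, 92570902 to 92573735, minus strand). It was scarce, with 1, 6, 1 and 3 UMIs in WT 1 to 4, against 2, 8, 4 and 0 in A17/+ 1 to 4. At 10.3 ± 8.78 CPM in WT against 9.59 ± 9.84 CPM in A17/+ (SD, n = 4) the groups overlapped fully, and exact permutation of the group labels in all 70 ways, two-sided, gave p = 0.829. The edgeR fit without a count filter put its log2 fold change at −0.04 with a 95% interval from −1.44 to 1.37, and a difference could not be detected with these few counts.

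The transglutaminases are the enzymes that cross-link the envelope. Tgm1 encodes the membrane-bound transglutaminase of keratinocytes (ENSMUSG00000022218, chromosome 14, 55700009 to 55713926, minus strand). Its level was 46.8, 90.5, 60.9 and 65.0 CPM in WT 1 to 4, against 29.0, 81.9, 53.7 and 94.1 CPM in A17/+ 1 to 4. The A17/+ libraries held both the lowest and the highest value of the 8. The log2 fold change was −0.03 with a 95% interval from −0.74 to 0.69 (edgeR adjusted p = 0.969). The antisense gene Gm49067 (plus strand, 55681918 to 55712282) overlaps most of the span of Tgm1 and has no row in the count table. Without the strand setting of the counting, the reads of such a pair cannot be told apart.

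Tgm3 encodes a soluble transglutaminase that is activated by proteolysis (ENSMUSG00000027401, chromosome 2, 130012349 to 130050399, plus strand). It stood at 595, 527, 481 and 385 CPM in WT 1 to 4, against 359, 613, 551 and 445 CPM in A17/+ 1 to 4, again with the A17/+ libraries at both ends. The means, 497 ± 88.3 CPM in WT against 492 ± 113 CPM in A17/+ (SD, n = 4), differed by less than the spread between libraries. Its log2 fold change was −0.03 with a narrower 95% interval, from −0.42 to 0.37 (edgeR adjusted p = 0.948). Changes of the size measured for Sbsn, Evpl and Ppl in the same libraries lie outside that interval.

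Lor, Sprr1a and Sprr3 encode the bulk proteins, and with Ivl and Crnn they lie in the epidermal differentiation complex of mouse chromosome 3. Sprr3 (ENSMUSG00000045539, 92456502 to 92458720, minus strand) had 13, 2, 3 and 3 UMIs in WT 1 to 4, against 14, 68, 38 and 30 in A17/+ 1 to 4. As levels these were 29.0, 6.46, 10.2 and 16.3 CPM in WT against 31.2, 192, 107 and 85.5 CPM in A17/+. A17/+ 1, with 31.2 CPM, stood just above WT 1, with 29.0 CPM, and the other 3 A17/+ libraries were well above all of WT. The means were 15.5 ± 9.87 CPM in WT against 104 ± 66.8 CPM in A17/+ (SD, n = 4). Sprr3 rose by 2.60 on the log2 scale (SE 0.58, 95% interval 1.33 to 3.88, edgeR adjusted p = 0.0171). With the 2 libraries numbered 1 left out, the log2 fold change was 3.60. The call was lost without WT 3 (edgeR adjusted p = 0.0786), without WT 4 (0.0592) and with limma-voom (0.142).

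Sprr1a (ENSMUSG00000050359, 92483952 to 92485895, minus strand), a small proline-rich protein gene that is also known for its induction in stressed epithelia, had 7, 3, 1 and 3 UMIs in WT 1 to 4, against 2, 32, 15 and 12 in A17/+ 1 to 4. The libraries A17/+ 2, 3 and 4 were higher than every WT library, and A17/+ 1 was inside the WT range. In CPM the means were 11.2 ± 6.01 in WT against 42.9 ± 35.6 in A17/+ (SD, n = 4). On log2(CPM + 1) the difference was 1.46, and the two-sided exact permutation test gave p = 0.171 (0.343 adjusted over the 2 members below the filter). Those permutations cannot give a p below 0.0286. In the edgeR fit without a count filter, in which 4.30% of 19857 genes were called (3.10% higher and 1.20% lower), Sprr1a had a log2 fold change of 1.78 (95% interval 0.86 to 2.69, adjusted p = 0.00569). When any 1 WT library was left out the gene entered the filtered fit and did not pass (edgeR adjusted p 0.153 to 0.297). With the 2 libraries numbered 1 left out, its log2 fold change was 2.59. It entered these filtered fits through its A17/+ libraries only, so its values there are a description.

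Lor encodes loricrin, the glycine-rich protein that makes up most of the envelope of the epidermis (ENSMUSG00000043165, 92080271 to 92083142, minus strand). Its level was 169, 482, 332 and 591 CPM in WT 1 to 4, against 245, 1268, 613 and 544 CPM in A17/+ 1 to 4. WT 1 and A17/+ 1 were the lowest of the 8 libraries, A17/+ 2 was by far the highest, and the remaining values of the groups overlapped. The means were 393 ± 183 CPM in WT against 668 ± 431 CPM in A17/+ (SD, n = 4). The log2 fold change of 0.79 did not pass (95% interval −0.43 to 2.01, edgeR adjusted p = 0.408). Without A17/+ 1 it was 1.02 with an edgeR adjusted p of 0.0382, without both libraries numbered 1 it was 0.81 with 0.0444, and without A17/+ 2 it was 0.28 with 0.747. Without A17/+ 1 edgeR called 14% of all tested genes (10.7% higher and 3.37% lower), and without both libraries numbered 1 it called 20.9% (14.2% higher and 6.73% lower).

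The promoters of Sprr3, Sprr1a, Lor and Sbsn are shown because the first 3 lie in the same gene cluster of chromosome 3 with unlike values here and Sbsn, on chromosome 7, moved the other way from Sprr3. Each is the 150 bases before the most upstream annotated start, 5′ to 3′ on the gene's strand, from RefSeq for GRCm38.p6, the assembly of mm10. Capitals mark the AP-1 letters TGANTCA and the TATA box letters TATAAA, searched on both strands. AP-1 is the Fos and Jun dimer that is known to bind regulatory DNA of many envelope genes.
Sprr3: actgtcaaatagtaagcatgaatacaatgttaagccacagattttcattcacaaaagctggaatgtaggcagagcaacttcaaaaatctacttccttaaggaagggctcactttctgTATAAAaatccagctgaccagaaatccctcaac
Sprr1a: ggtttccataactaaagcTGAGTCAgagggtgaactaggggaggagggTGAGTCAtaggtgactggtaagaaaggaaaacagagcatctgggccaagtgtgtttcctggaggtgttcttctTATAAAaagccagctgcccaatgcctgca
Lor: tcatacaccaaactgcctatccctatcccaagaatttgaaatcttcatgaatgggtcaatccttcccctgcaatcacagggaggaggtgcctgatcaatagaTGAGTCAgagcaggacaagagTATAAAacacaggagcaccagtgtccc
Sbsn: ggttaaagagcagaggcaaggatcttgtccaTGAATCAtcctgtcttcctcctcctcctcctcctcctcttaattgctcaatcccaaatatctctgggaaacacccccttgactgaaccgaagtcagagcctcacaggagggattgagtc
The windows lie at chr3:92458721-92458870 (Sprr3, minus strand), chr3:92485896-92486045 (Sprr1a, minus strand), chr3:92083143-92083292 (Lor, minus strand) and chr7:30751321-30751470 (Sbsn, plus strand). Sprr1a held 2 AP-1 matches, which began 132 and 102 bases before the start, Lor held 1 at 48 bases and Sbsn held 1 at 119 bases. The Sprr3 window had a TATA box 33 bases before the start and no match to the AP-1 letters. Of 8 members in the promoter table, 7 had a full window, and 5 of these 7 held the AP-1 letters, as did 4.24% of all 32851 promoter windows of that length. The TATA box letters were in 6 of the 7 and in 7.57% of all windows. The 5 with AP-1 letters were Lor, Sprr1a, Ivl, Crnn and Sbsn, which include genes that were lower, not past the threshold and below the count filter. The shorter letters CACCC (of a KLF site) and CCAAT were in 5 and 2 of the 7 windows, against 37.4% and 24.5% of all windows.

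Sbsn and Crnn encode proteins of the upper layers that are outside the scaffold. Sbsn encodes suprabasin, a protein of suprabasal keratinocytes named for that position (ENSMUSG00000046056, chromosome 7, 30751471 to 30756134, plus strand). It stood at 201, 304, 271 and 211 CPM in WT 1 to 4, against 132, 107, 124 and 128 CPM in A17/+ 1 to 4. No A17/+ library reached any WT library, and the 4 A17/+ values lay close together. The means were 247 ± 49.1 CPM in WT against 123 ± 10.8 CPM in A17/+ (SD, n = 4). Sbsn fell by 1.00 on the log2 scale (SE 0.20, 95% interval −1.43 to −0.57, edgeR adjusted p = 0.00726), the largest fall among the tested members. A noncoding gene on the same strand, Tmem147os, overlaps Sbsn in the annotation and has no row in the count table.

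Crnn encodes cornulin, a calcium-binding protein of the fused S100 family that is abundant in oral and oesophageal epithelium (ENSMUSG00000078657, chromosome 3, 93144787 to 93149819, plus strand). Its level was 118, 149, 129 and 97.5 CPM in WT 1 to 4, against 53.5, 121, 98.9 and 91.2 CPM in A17/+ 1 to 4. A17/+ 1 was the lowest of all, and A17/+ 2 and 3 lay inside the WT range. The log2 fold change of −0.45 did not pass (95% interval −0.995 to 0.085, edgeR adjusted p = 0.285).

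**Figure D2:**
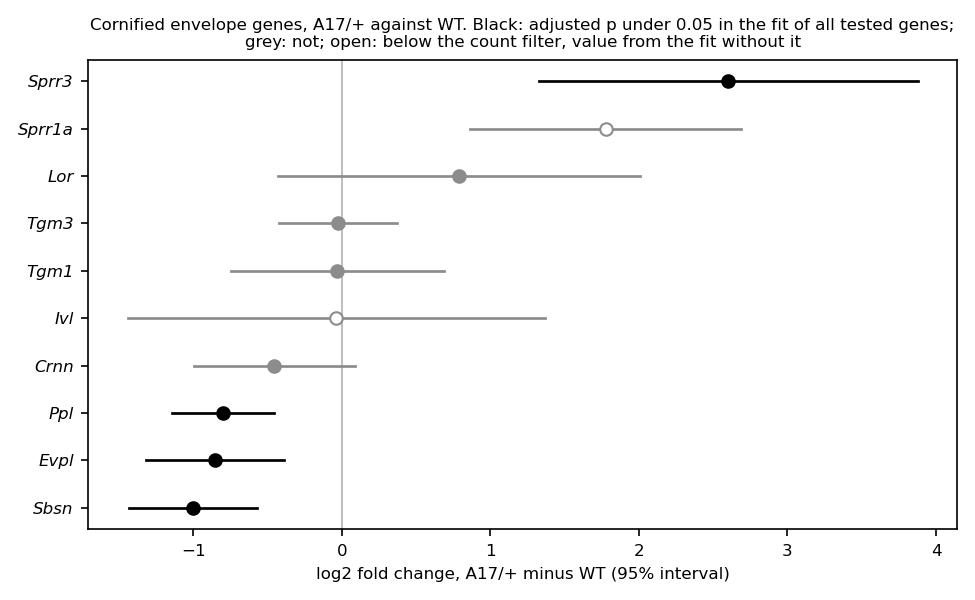
Log2 fold change, A17/+ minus WT, of the 10 genes (horizontal axis) with 95% intervals as lines; black points passed an adjusted p of 0.05 in the edgeR fit of 5066 genes, grey points did not, and open points are the 2 genes below the count filter, taken from the fit without it. Sprr3 lies at 2.60, Sbsn, Evpl and Ppl lie left of 0 with Ppl at −0.80, and Tgm1 and Tgm3 lie at −0.03.

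To set the members against the amount of epithelium in each library, their UMIs were divided by those of 12 suprabasal tongue keratins. Of these 12 keratins, none was called higher and 1 lower (Krt76, a keratin of the oral suprabasal layers, log2 fold change −0.72, edgeR adjusted p = 0.0132), with a median log2 fold change of −0.07. Calls over all tested genes were 6.34% higher and 2.61% lower. Krt13 and Krt4, the keratin pair of moist stratified epithelia, named after their values were seen, had values of 0.68 (edgeR adjusted p = 0.0501) and 0.38 (0.227). Krt13 passed without WT 1 (edgeR adjusted p = 0.0246) and without A17/+ 1 (0.00454). The summed share of the 12 overlapped between the groups.

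Relative to these keratins the called members kept their directions. Per 1000 keratin UMIs, Ppl had 153, 176, 195 and 206 UMIs in WT 1 to 4, against 135, 85.2, 94.3 and 73.5 in A17/+ 1 to 4. Sbsn had 19.8, 27.6, 26.4 and 20.8 in WT and 17.3, 6.82, 10.9 and 10.3 in A17/+. In both genes every A17/+ library was below every WT library, with A17/+ 1 nearest to WT. Sprr3 had 2.86, 0.588, 0.990 and 1.60 in WT and 4.09, 12.2, 9.46 and 6.89 in A17/+, all 4 above WT. Evpl had 32.8, 61.1, 56.7 and 54.9 in WT and 35.7, 25.5, 24.1 and 18.8 in A17/+, where A17/+ 1 overlapped WT 1. Crnn had 11.7, 13.5, 12.5 and 9.60 in WT and 7.02, 7.71, 8.71 and 7.35 in A17/+, so its groups did not overlap on this scale, although they overlapped as CPM. The share of all genes whose groups do not overlap on this keratin scale was not computed.

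When the keratin sum took the place of the library size in edgeR, 6.97% of all tested genes were called (4.99% higher and 1.97% lower). The log2 fold changes were 2.36 for Sprr3 (adjusted p = 3.67e-06), −1.08 for Sbsn (0.0245), −0.98 for Evpl (0.0238) and −0.92 for Ppl (0.0228). The value of Sprr3, which entered the test through its A17/+ libraries, is a description. Crnn had −0.63 and did not pass (adjusted p = 0.326). With the summed level of 17 tongue keratinocyte genes as a covariate, edgeR called the same 4 members, beside 12.7% of all tested genes (7.95% higher and 4.74% lower).

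**Figure D3:**
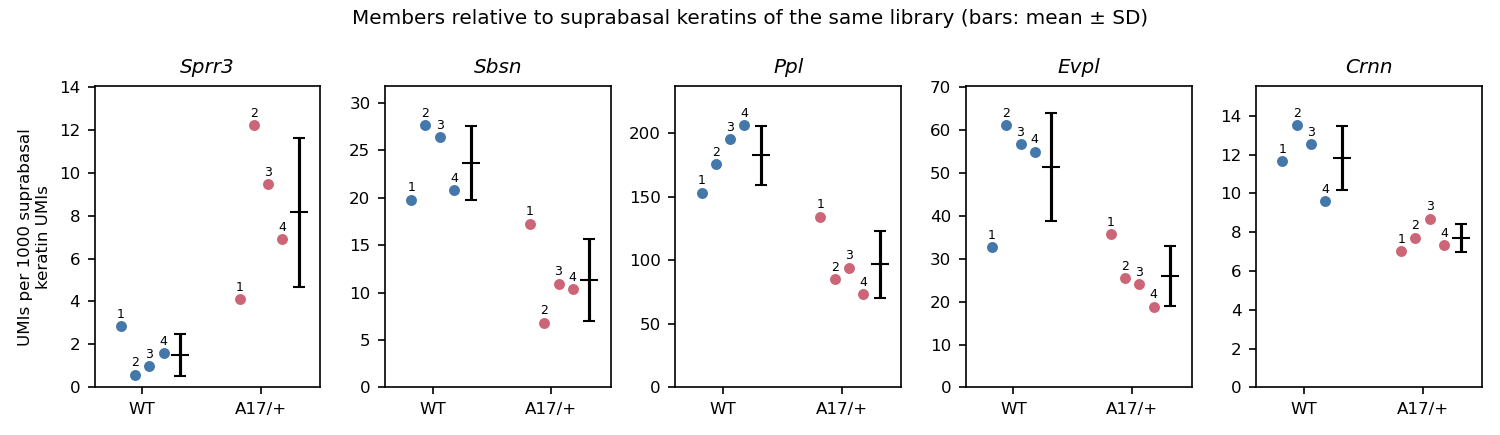
UMIs of 5 members (Sprr3, Sbsn, Ppl, Evpl and Crnn) per 1000 UMIs of the 12 suprabasal tongue keratins (vertical axis, own linear scale per panel) in each of the 4 WT and 4 A17/+ libraries, 1 point per library, with bars for the group mean and its SD. Ppl and Sbsn are lower and Sprr3 is higher in all A17/+ libraries than in all WT libraries, with A17/+ 1 nearest to WT in each.

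The other genes of cornification were taken from a list of 98 genes of the epidermal differentiation complex, lipid barrier, proteases and late transcription factors, of which 80 were in the count table and 42 were tested. In the edgeR fit 2 of the 42 rose, 8 fell and 32 did not pass, beside 6.34% higher and 2.61% lower over all tested genes. Their median log2 fold change was −0.11. The balance of calls differed under some alternatives, which tested more of the related genes. Without the count filter edgeR called 18 higher and 9 lower of 80, beside 3.1% and 1.2% of all genes. Without A17/+ 1 it called 20 higher and 7 lower of 54, beside 10.7% and 3.37%. Without both libraries numbered 1 it called 18 higher and 7 lower of 49, beside 14.2% and 6.73%. With WT 4 left out as well it called 21 higher and 6 lower of 62, beside 639 and 187 of 5855 genes. Leaving out a library lowers the number of libraries that the count filter asks for. Genes that reach its level only in A17/+ can then enter, as Sprr1a did, so the counts of these fits are a description. Genes with the smallest p in the fit of all 8 libraries were lower in A17/+. Abca12, the transporter that loads lipid into lamellar granules, was at 366 ± 97.9 CPM in WT against 158 ± 19.2 CPM in A17/+ (SD, n = 4; log2 fold change −1.22, adjusted p = 0.00324). Spink5, an inhibitor of the proteases that shed corneocytes, fell by 0.79 on the log2 scale (adjusted p = 0.0102), and Prdm1, a transcription factor of late keratinocytes, fell by 1.36 (adjusted p = 0.0138). Without WT 2 the call of Prdm1 was lost (edgeR adjusted p = 0.0512).

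Fused S100 proteins, the family of Crnn, bind keratin filaments or the envelope. Rptn (repetin) was at 2361 ± 169 CPM in WT against 1473 ± 293 CPM in A17/+ (SD, n = 4), and it fell by 0.68 on the log2 scale (edgeR adjusted p = 0.0165). Tchh, trichohyalin of the filiform papillae and hair follicle, fell by 0.82 (edgeR adjusted p = 0.0237), although A17/+ 2 at 10046 CPM lay above WT 1 at 9483 CPM. Flg, filaggrin, was at 736 ± 244 CPM in WT against 356 ± 109 CPM in A17/+ (SD, n = 4; log2 fold change −1.04, edgeR adjusted p = 0.0250). The remaining 2 genes that fell, Hrnr (hornerin, also a fused S100 protein) and Kazn (kazrin, a partner of periplakin), were named after their values were seen. They changed by −0.98 (edgeR adjusted p = 0.0415) and −1.27 (0.0280). Single libraries decided some of these calls in edgeR: without WT 3 the adjusted p was 0.0544 for Rptn, 0.0748 for Flg, 0.0791 for Tchh, 0.0953 for Kazn and 0.0578 for Hrnr. The call was also lost without WT 4 or A17/+ 4 for Flg, Tchh, Kazn and Hrnr, without A17/+ 3 for Tchh, and without WT 2, A17/+ 1 or A17/+ 2 for Hrnr.

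The 2 related genes that rose, also named after their values were seen, were S100a16, a small calcium-binding protein, with a log2 fold change of 1.24 (edgeR adjusted p = 0.0222), and Emp1, an epithelial membrane protein, with 0.88 (0.0483). Emp1 lost its call when any library except A17/+ 1 was left out (edgeR adjusted p 0.0555 to 0.164), and S100a16 lost it without WT 3, WT 4, A17/+ 2, A17/+ 3 or A17/+ 4 (edgeR adjusted p 0.0512 to 0.0824). Among abundant list genes that did not pass, Ly6g6c had −0.67 (edgeR adjusted p = 0.176) and Dmkn (dermokine) had −0.19 (0.669). Dmkn and Sbsn are neighbours on chromosome 7. Sbsn ends at 30756134, Dmkn starts at 30763756 and Krtdap starts at 30787896, all on the plus strand. The 3 had unlike values: Sbsn fell, Dmkn did not pass, and Krtdap, a keratinocyte differentiation protein named after its values were seen, had a log2 fold change of 2.79 with an edgeR adjusted p of 0.116. Its levels were 17.8, 54.9, 13.5 and 5.42 CPM in WT 1 to 4, against 8.92, 356, 158 and 160 CPM in A17/+ 1 to 4, so it was high in A17/+ 2, 3 and 4 and within the WT range in A17/+ 1. Without A17/+ 1, the A17/+ library in which it was low, its log2 fold change was 3.14. Krtdap entered the fit mostly through its A17/+ libraries, so this value is a description. Ly6g6c passed without WT 4 (edgeR adjusted p = 0.0245).

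Transcript length moved with the direction of change. The 3 members that fell have longest annotated transcripts of 2221 nt (Sbsn), 6384 nt (Evpl) and 6217 nt (Ppl), and Sprr3, which rose, has 1222 nt. Among the related genes, the 8 that fell have annotated lengths of 1488 nt (Flg) to 11187 nt with a median of 5033 nt. The 2 that rose have 1127 and 2911 nt. These lengths come from the annotation alone, which may hold a transcript in part, and 3′ counts do not measure length. Across genes, Spearman's rho between log2 fold change and transcript length was −0.619 over the 8 tested members and −0.690 over the 42 related genes, beside −0.252 over 5060 tested genes. These genes share the same 8 libraries and are not independent replicates. Of 173 tested genes with annotated transcripts under 1000 nt, edgeR called 70 higher and 3 lower, with a median log2 fold change of 1.27. The 11 related genes among these 173, with Krtdap and Lce3e, had 0 calls and a median of 0.47. Transcripts under 1000 nt took 6.46%, 4.38%, 4.53% and 4.34% of the counts in WT 1 to 4, against 6.26%, 8.97%, 7.76% and 8.67% in A17/+ 1 to 4, so that WT 1 and A17/+ 1 again lay together. With a length trend removed from each library, which left 8.86% of all tested genes called by edgeR (5.31% higher and 3.55% lower), the 4 called members were called still: Sprr3 had 2.06 (adjusted p = 0.00999), Sbsn −1.13 (0.00303), Evpl −0.79 (0.0311) and Ppl −0.74 (0.00921). Of the related genes, 0 were then higher and 9 lower.

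**Figure D4:**
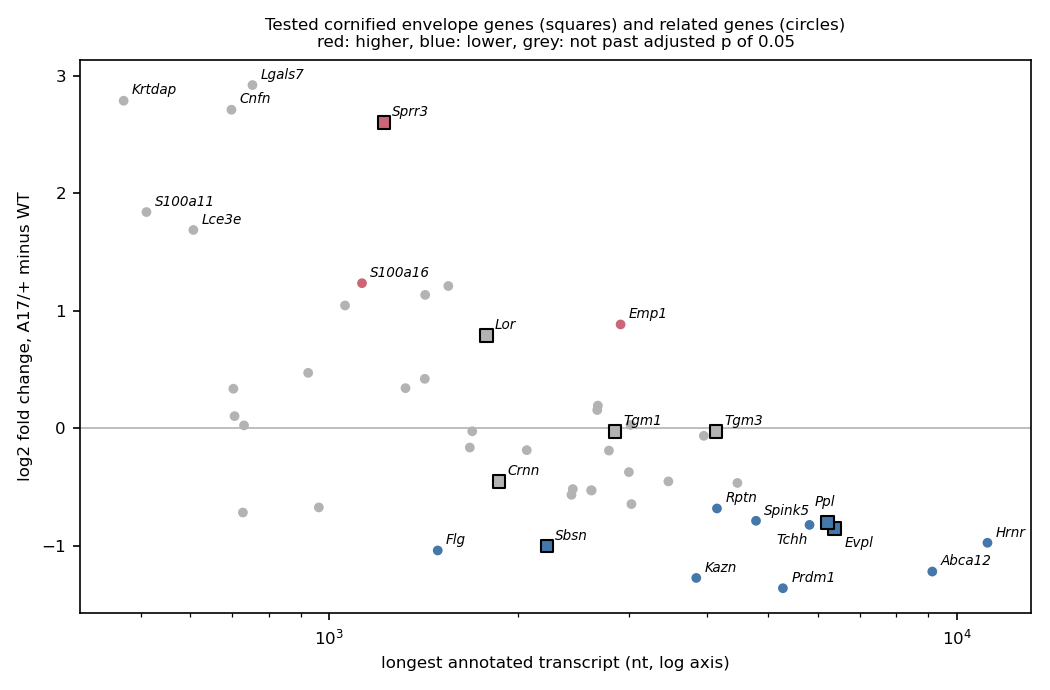
Log2 fold change, A17/+ minus WT (vertical axis), against the longest annotated transcript in nt (horizontal log axis) for the 8 tested cornified envelope genes (squares) and the 42 tested related genes (circles); red points were called higher, blue points lower and grey points did not pass an adjusted p of 0.05. The points fall from the upper left, with Sprr3 at 1222 nt, to the lower right, with Ppl at 6217 nt and Evpl at 6384 nt.

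Markers of other cells in the section were read beside the members. Over all tested genes 6.34% were called higher and 2.61% lower. Of 10 basal keratinocyte genes, edgeR called none higher and 2 lower: Lama3, a laminin chain of the basement membrane (log2 fold change −0.84, adjusted p = 0.0174), and Col17a1, a hemidesmosome collagen (−0.58, adjusted p = 0.0377). Both calls were lost without WT 2 or A17/+ 4, and that of Col17a1 also without WT 3 or A17/+ 3 (edgeR adjusted p up to 0.0571 for Lama3 and 0.124 for Col17a1). Their summed share of the counts was 0.609% to 0.723% in WT and 0.433% to 0.524% in A17/+, with no overlap. Of 5 genes of hair-bearing skin, 2 were tested and both fell, Flg (above) and Krt10, a suprabasal keratin of epidermis, which had 392 ± 66.7 CPM in WT against 153 ± 45.5 CPM in A17/+ (SD, n = 4; log2 fold change −1.36, edgeR adjusted p = 0.00278).

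Genes of muscle and connective tissue were higher or did not pass. The shares over all tested genes were 6.34% higher and 2.61% lower. Of 12 skeletal muscle genes 7 rose and none fell in the edgeR fit, with a median log2 fold change of 0.87, among them Acta1, Ckm, Tnnt3 and Des at 1.68, 1.09, 1.18 and 1.31. With the length trend removed Tnnt3 had 0.54 and lost its call (edgeR adjusted p = 0.106). The muscle share of the counts was 8.86% to 10.8% in WT and 9.38% to 11.8% in A17/+. Of 7 tested fibroblast genes 3 rose, namely Dcn (2.24), Col3a1 (1.31) and Fbn1 (0.82), and none fell. The call of Dcn was lost without WT 4 and that of Col3a1 without WT 3, and Fbn1 kept its call only without WT 1 or A17/+ 1. The 10 members together took 0.295% to 0.436% of the counts in WT and 0.199% to 0.358% in A17/+. The part of the tissue makeup of the sections in the levels of the members was not tested beyond the keratin values above.

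The mean z-score of the 8 tested members, taken without regard to their direction of change, was followed over the 8 libraries. It was −0.09, 0.63, 0.29 and 0.15 in WT 1 to 4, against −1.15, 0.53, −0.12 and −0.26 in A17/+ 1 to 4, lowest in A17/+ 1. The 6 genes outside the list whose log2(CPM + 1) followed it most closely were Krt80 (Pearson r = 0.97 over 8 libraries), Klf4 (0.97), Dmkn (0.97), Jup (0.96), Sipa1l1 (0.94) and Map7 (0.94). Krt80 is a keratin of differentiating epithelia, Klf4 a transcription factor of the epidermal barrier, and Jup encodes plakoglobin of desmosomes. None of the 6 was past the threshold between the genotypes in edgeR, with adjusted p from 0.201 for Map7 to 0.671 for Krt80. The mean z-score joins members that rose with members that fell. Genotype differences thus partly cancel in it, and genes chosen to follow it are not a test of them. Klf4 passed without A17/+ 2 (edgeR adjusted p = 0.0276). The libraries share depth and tissue composition in these correlations.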

How the data were processed

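RNA of 8 tongues was counted by mcSCRB-seq, which tags the 3′ end of polyadenylated RNA with a UMI. Per the submitters' processing notes, the tools were UMI-tools 1.1.1, STAR 2.7.5a, cutadapt 2.10 and HTSeq on build mm10. The annotation release and strand setting are not given in the sources used here. The authors deposited raw counts per gene, which were analysed, and log2 values of 10709 genes, which served 1 alternative.

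Symbols, positions and lengths came from GENCODE (M21, mm10), which named 19675 of 19857 genes, and promoters from RefSeq. Counts passed filterByExpr (minimum count 10, minimum total 15), were scaled by TMM and were fitted with robust quasi-likelihood in edgeR 4.0.16 (R 4.3.3) on genotype alone. The Benjamini and Hochberg adjustment covered 5066 genes, with 0.05 as threshold. On simulated data the edgeR fit recovered 30% of 2-fold and 76% of 4-fold changes, so a gene that did not pass may still differ. Replicates are separate mice per the labels. Members below the filter were compared by exact permutation of log2(CPM + 1) in scipy 1.17.1. At 3 UMIs a gene has 6.69 to 16.3 CPM, so scarce genes carry a large counting error.

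The members and lists were chosen with earlier results of these data known. Named were all members, up to 4 called genes of each list by smallest p, up to 3 abundant related genes as values and 6 genes of like pattern. Others are said to be named after their values were seen.

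Alternatives were relative log expression, upper quartile and total scaling, DESeq2 1.42.0, limma-voom and limma-trend (limma 3.58.1), no filter or a mean count of 10, an adjusted p under 0.1, the replicate number as a block, a keratinocyte covariate, a length trend removed, keratins as denominator, each library left out, and both libraries numbered 1 left out. Thinning to the smallest library, and leaving out WT 4 with the libraries numbered 1, were added after seeing the data.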

Additional observations from a re-analysis of the deposited data

Results flagged for a closer look

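The level of Rptn in WT 4, 2108 CPM, lay far below the other WT libraries, which stood between 2433 and 2460 CPM. The gap was 0.925 of the range of the group, above the 95% critical value of Dixon's test for 4 samples. Chance flags about 1 in 20 groups. All 4 A17/+ libraries lay below WT 4, with 1697 CPM as the highest. The level of S100a16 in WT 2, 67.9 CPM, lay far above the other WT libraries, which stood between 33.4 and 37.9 CPM, a gap of 0.869 of the range. It was also above A17/+ 1, at 60.2 CPM.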

How the results depend on the processing

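Ppl and Sbsn kept their direction and their call under every alternative run for them. Over 47 named genes, 34 by the rule and 13 after their values were seen, and 1030 pairs of gene and alternative, 890 kept direction and side of the threshold, 103 lost the call, 27 gained it and 10 changed sign. The number of genes tested differed between fits. The count of called genes was 453 of 5066 in the edgeR fit, 228 of 5066 with limma-voom and 775 of 5066 at an adjusted p under 0.1. It was 853 of 19857 without the filter and 797 of 10709 with limma-trend on the deposited log2 values. Without both libraries numbered 1 it was 1025 of 4907, with WT 4 left out as well 826 of 5855, and after thinning 268 of 3231. Leaving out 1 library gave 210 of 5622 (without WT 3) to 890 of 5461 (without WT 1). With library totals only, the median log2 fold change of all genes was −0.11 in place of 0.01, and 279 genes were higher and 289 lower in place of 321 and 132. The 4 called of 8 tested members became 2 of 8 with limma-voom and 6 of 9 without both libraries numbered 1. Leaving out 1 library gave 2 of 9 (without WT 3) to 6 of 9 (without A17/+ 1). The 10 called of 42 tested related genes became 5 of 42 with limma-voom and 16 of 42 with the keratinocyte covariate (643 of 5066 genes). They became 27 of 80 without the filter and 16 of 70 with limma-trend. Without both libraries numbered 1 they became 25 of 49, and without WT 4 as well 27 of 62. Leaving out 1 library gave 3 of 55 (without WT 3) to 27 of 54 (without A17/+ 1, where 771 of 5491 genes were called). Of the 27 without the filter, 18 were higher and 9 lower, and of the 25 without both libraries numbered 1, 18 were higher and 7 lower. Fits with libraries left out admit genes that reach the filter level only in A17/+, such as Sprr1a, so their counts are a description.

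Sign changes were seen in Tgm1 and Tgm3, which lay at −0.03. Tgm1 ranged from −0.29 to 0.19 when 1 library was left out (0.132 without WT 2, 0.188 without A17/+ 1, 0.0466 without A17/+ 3), and was 0.0674 without both libraries numbered 1, 0.0176 without WT 4 as well and 0.294 after thinning. Tgm3 ranged from −0.17 to 0.0482 (0.0322 without WT 1, 0.0482 without A17/+ 1), and was 0.199 without both libraries numbered 1 and 0.0940 without WT 4 as well. The cause was not tested. The labels do not say what equal replicate numbers share. Deviations from the group means correlated at −0.16 to 0.07 in the 4 same-numbered pairs, and 0 libraries correlated best with their own number. These correlations cannot show that the numbers share nothing, and the log2 levels of WT 1 and A17/+ 1 correlated at 0.927. With the replicate number as a block the SE of Lor was 0.225 in place of 0.531. With the replicate block, 410 genes, 4 members and 14 related genes were called. Depth limits Ivl, Sprr1a and the WT values of Sprr3, which rest on 1 to 13 UMIs per library in WT.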

Other observations

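The Lce and Sprr families and Csta1, Hr, Dsp and Epgn were named after their values were seen. The 6 genes of the Lce3 family, which encode late cornified envelope proteins, summed to 20, 28, 15 and 6 UMIs in WT 1 to 4, against 27, 278, 118 and 122 in A17/+ 1 to 4. A17/+ 2, 3 and 4 were above every WT library, and A17/+ 1 was within the WT range. Lce3e alone passed the count filter, and it was not called in the edgeR fit of all 8 libraries. All 6 have annotated transcripts under 1000 nt, and of 173 tested genes of that length edgeR called 70 higher and 3 lower. In the edgeR fit without a filter, Lce3f had a log2 fold change of 3.47 (adjusted p = 1.12e-11), from 9 UMIs in WT and 131 in A17/+ in all, and Lce3a had 2.65 (adjusted p = 2.99e-09), from 16 and 127. When any 1 WT library was left out, both entered the filtered fit and did not pass (edgeR adjusted p up to 0.114 and 0.121). The SE of Lce3f was 0.443 in the fit without a filter and 1.00 to 1.07 in these filtered fits. Both genes entered the filtered fits mostly through their A17/+ libraries, so their values are a description. The 13 genes of the Lce1 family summed to 180, 154, 103 and 85 UMIs in WT and to 199, 334, 191 and 214 in A17/+, and as CPM the groups overlapped. The 6 Sprr genes, Sprr3 and Sprr1a included, together had 28, 14, 10 and 8 UMIs in WT and 17, 122, 62 and 47 in A17/+. Genes within the Lce1 and Lce3 families are alike in sequence, so the split of reads between them is uncertain.

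Csta1, which encodes a cystatin A that inhibits cysteine proteases and is itself cross-linked into the envelope, had 0 UMIs in all WT libraries and 1, 17, 6 and 6 in A17/+ 1 to 4. With the UMIs of each group pooled, Csta1 was at least 7.45-fold above a floor of 3 counts over the WT group. A17/+ 2 gave 17 of the 30 UMIs, and A17/+ 1, at 2.23 CPM, lay below that floor of 2.34 CPM. The pooled value holds no spread between mice and is a description. Single members were also followed across the 8 libraries, with the same libraries behind every r. Ppl ran closest with Hr, a hair growth co-repressor (Pearson r = 0.99), and, among its next 4, with Dsp (0.98), which encodes the desmosomal plakin desmoplakin and had a log2 fold change of −0.85 (edgeR adjusted p = 0.00553). Sbsn ran closest with Epgn (0.98), an epidermal growth factor ligand that fell by 1.94 (edgeR adjusted p = 0.00944, or 0.0559 without WT 2), and Abca12 was also among its first 5 (0.97).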
